A study of Mus musculus with 18 samples.

Results

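Collagen genes were followed in 18 RNA libraries of sorted cells from the small intestine of adult C57BL/6J mice. The genes were taken by name: all rows of the count tables whose symbol has the form Col, a type number, a and a chain number. This gave 44 of the 23238 gene symbols in the tables. They fall into the fibrillar collagens (11 genes), the basement membrane collagens of type IV (6), the type VI collagens (6), the FACIT collagens that sit on fibrils (9), the multiplexins (2), the short-chain network collagens (3), the anchoring fibril collagen (1), the transmembrane collagens (4) and others (2).

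RNA was measured in 4 groups. WT IntSC (n = 6) were PDGFRb+ intestinal stromal cells, and WT LEC (n = 4) were lymphatic endothelial cells of the small intestine. Both came from mice of the genotype PDGFRb+-CreERT2-Tomato+. The study also calls the LECs lacteal, after the lymphatic vessels inside the villi, but its sorting methods name no step that removes the submucosa. KO IntSC (n = 5) and KO LEC (n = 3) were the same cell types from mice that carried the same Cre and reporter together with Lats1f/f Lats2 f/f. The Cre is driven by the Pdgfrb promoter and becomes active with tamoxifen, so the controls carry it too, and the stromal cells are the ones in which Lats1 and Lats2, the kinases that restrain YAP and TAZ in the Hippo pathway, were to be deleted. By the study's methods Pdgfrb+ cells of the villus include fibroblasts, smooth muscle cells and pericytes, and the purity of the sorted cells was not assessed there. The study's legends give 5 to 6 mice a group for the stromal RNA and 3 to 4 for the LEC RNA, pooled from several experiments. The labels do not say whether a library is 1 mouse, nor which experiment it came from. The p-values below therefore measure the spread between these libraries, which may be in part technical.

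Collagens are secreted as trimers of chains and make up the fibres, sheets and filaments of the extracellular matrix. In the intestinal villus, fibroblasts are known as the main makers of fibrillar and type VI collagen, while endothelial and mural cells also build the type IV collagen sheets of the vessel basement membrane. Chains of 1 trimer are encoded by separate genes, so the levels of partner chains can be read side by side.

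Total counts ranged from 5361250 to 10549233 per library. Levels are given as CPM, read counts scaled to a common library size over the 18 libraries with TMM factors, which bring the bulk of genes to the same level. A count of 3, used as a floor, corresponds to 0.281 to 0.621 CPM in a single library, and floors and intervals from counts cover counting error only. Values of different genes, including shares of reads and ratios of chains, describe reads and are not compared as amounts of transcript. Collagen genes took 0.731% to 1.75% of all counts in IntSC libraries and 0.24% to 0.319% in LEC libraries. Lats2 was 40.8 to 112.5 CPM in WT IntSC and 78.4 to 132.8 CPM in the IntSC libraries labelled KO, and Lats1 was 0 to 29.9 CPM and 12.5 to 21.6 CPM. The kit reads mainly the 3′ end of a transcript, which can remain when internal exons are lost, so these counts do not check the labels, and the groups are named as labelled. Of 10 stromal markers, all were lower in WT LEC than in WT IntSC by the test given below, and 9 of 10 LEC markers were higher. One library stood apart: summed stromal markers were 2960 CPM in WT LEC 1 and 659 to 834 CPM in the other WT LEC libraries, so values on LECs that moved most without it are also given without it.

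At least 1 read was found in every library for 25 of 44 collagen genes in WT IntSC, 28 in KO IntSC, 20 in WT LEC and 18 in KO LEC. In WT LEC 13 collagen genes and in KO LEC 15 had no read in any library, against 3 in WT IntSC and 1 in KO IntSC. A mean of at least 10 CPM was reached by 23 collagen genes in WT IntSC, 22 in KO IntSC, 15 in WT LEC and 13 in KO LEC. Fibrillar and type VI genes filled most of the collagen reads of stromal cells: the fibrillar class took 45.0% to 54.7% of them in WT IntSC and type VI 26.2% to 32.0%. In WT LEC the transmembrane class took 24.5% to 46.1% and the basement membrane class 16.9% to 25.6%.

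**Figure D1:**
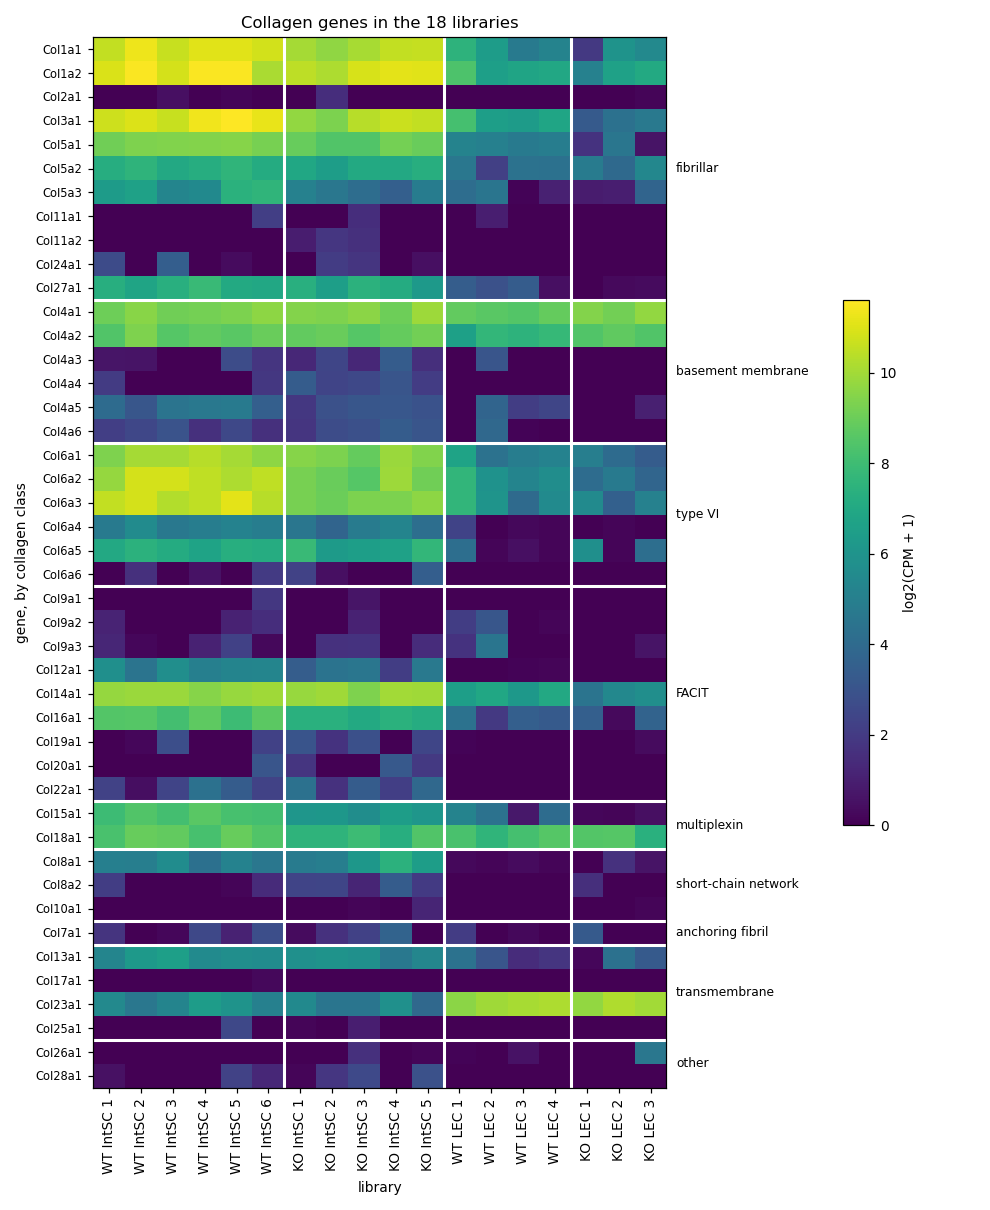
Each cell of the heat map shows log2(CPM + 1) of 1 of the 44 collagen genes (rows, ordered by class) in 1 of the 18 libraries (columns, ordered by group, KO meaning labelled KO). The 7 fibrillar and 5 type VI genes that were tested between cell types are brighter in the 6 WT IntSC libraries than in the 4 WT LEC libraries, and Col23a1 is the reverse.

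The first question was how collagen genes differed between stromal cells of WT mice and those labelled KO. Of the 44 genes, 30 had enough counts to be tested, and 6 were lower in KO IntSC: Col3a1 and Col5a3 of the fibrillar class, Col6a2 and Col6a3 of type VI, the FACIT Col16a1 and the multiplexin Col15a1. None of the 30 was higher. The test was edgeR's quasi-likelihood test with Benjamini-Hochberg adjustment over the 12421 genes tested and an adjusted p under 0.05 as the threshold, and 0.62% of all genes tested passed it as lower and 0.853% as higher. The median log2 fold change was -0.38 over the 30 collagen genes and 0.00 over all genes tested, and 19 of 30 collagen genes had a negative value against 49.8% of all genes. For 4 of the 6 genes every KO library was below every WT library, an order found in 1.18% of all genes tested. One collagen gene, Col4a4, had every KO library above every WT library, an order found in 1.63% of all genes.

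Col15a1 encodes a collagen that carries heparan and chondroitin sulfate chains and lies beside basement membranes. It ranged from 247 to 396 CPM in WT IntSC with a median of 293, and was 66.4, 69.2, 50.7, 86.0 and 67.7 CPM in KO IntSC libraries 1 to 5. The highest KO library thus held far less than the lowest WT library, and the groups did not overlap. The mean fell from 310 ± 55.0 CPM (SD, n = 6) to 68.0 ± 12.5 CPM (SD, n = 5), which is 4.58-fold lower (log2 fold change -2.19 ± 0.19, SE, adjusted p = 1.18e-06). Col18a1, the other multiplexin and the source of endostatin, ranged from 299 to 478 CPM in WT IntSC with a median of 404 and was 187, 187, 245, 152.5 and 352 CPM in KO IntSC. Its groups overlapped through KO IntSC 5, and the log2 fold change of -0.82 ± 0.22 (SE) missed the threshold (adjusted p = 0.0631). Without KO IntSC 5 it was -1.04 with an adjusted p of 0.015, and it also passed with DESeq2 (adjusted p = 0.0122).

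Type VI collagen forms beaded microfilaments near the cell surface, and its common trimer joins an alpha1, an alpha2 and an alpha3 chain. Col6a3 ranged from 1248 to 2255 CPM in WT IntSC with a median of 1466 and was 590, 513, 645, 643 and 791 CPM in KO IntSC. The groups did not overlap, and the log2 fold change was -1.34 ± 0.18 (SE, adjusted p = 0.000284), 2.53-fold lower. Col6a2 ranged from 883 to 1872 CPM in WT IntSC with a median of 1445 and was 590, 488, 367, 965 and 549 CPM in KO IntSC, so that only KO IntSC 4 reached the lowest WT library. Its log2 fold change was -1.29 ± 0.23 (SE, adjusted p = 0.00412), 2.45-fold lower.

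The partner chain Col6a1 differed less and missed the threshold. It ranged from 652 to 1328 CPM in WT IntSC with a median of 1060 and was 719, 644, 468, 915 and 674 CPM in KO IntSC, with a log2 fold change of -0.54 ± 0.19 (SE, adjusted p = 0.238). Within a library, Col6a2 counts divided by Col6a1 counts gave 1.09 to 1.78 in WT IntSC and 0.757 to 1.05 in KO IntSC, ranges that did not overlap. For Col6a3 over Col6a1 the ranges were 1.09 to 2.29 and 0.703 to 1.38 and overlapped. The related chains Col6a5 and Col6a4, which can take the place of alpha3, had log2 fold changes of -0.02 ± 0.26 and -0.45 ± 0.34 (SE) and overlapping groups. Summed over the class, type VI reads ranged from 3180 to 5033 CPM in WT IntSC and from 1598 to 2660 CPM in KO IntSC, and the KO mean was 49.3% of the WT mean.

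Among the fibril formers, Col3a1 builds type III collagen, the partner of type I in distensible tissue. It ranged from 1590 to 3115 CPM in WT IntSC with a median of 2244 and was 846, 645, 1325, 1639 and 1492 CPM in KO IntSC. Only KO IntSC 4 reached into the WT range, and the log2 fold change was -0.92 ± 0.23 (SE, adjusted p = 0.0438). This call was close to the threshold and was lost, with adjusted p of 0.0512 to 0.141, in the fits without WT IntSC 2, 4, 5 or 6 and without KO IntSC 1, 2, 3 or 5, taken singly. Its log2 fold change stayed between -1.02 and -0.77 in those fits. Col5a3, a chain of type V collagen, which sits inside type I fibrils and limits their width, ranged from 37.7 to 195 CPM in WT IntSC with a median of 91.5 and was 33.1, 22.9, 16.5, 10.5 and 28.6 CPM in KO IntSC. The groups did not overlap, and it was 4.71-fold lower (log2 fold change -2.24 ± 0.42, SE, adjusted p = 0.00688).

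Type I collagen itself was not called, though Col1a1 lay near the threshold and was not followed singly in the alternative fits. Its difference from Col3a1 was not tested. Col1a1 ranged from 1490 to 2576 CPM in WT IntSC with a median of 1996 and was 1039, 826, 1072, 1491 and 1546 CPM in KO IntSC, with a log2 fold change of -0.73 ± 0.19 (SE, adjusted p = 0.0547). Its partner chain Col1a2 ranged from 1118 to 2986 CPM in WT IntSC with a median of 2467 and was 1416, 1148, 1901, 2216 and 2165 CPM in KO IntSC, all inside the WT range (log2 fold change -0.39 ± 0.23, SE, adjusted p = 0.64). Col1a1 counts divided by Col1a2 counts gave 0.728 to 1.63 in WT IntSC and 0.564 to 0.734 in KO IntSC, which met at the edge. The type V chains Col5a1 and Col5a2 had log2 fold changes of -0.55 ± 0.17 and -0.36 ± 0.19 (SE), and Col27a1, a minor fibrillar collagen, -0.25 ± 0.24 (SE), each with an adjusted p over the threshold. All 7 fibrillar genes tested were on the negative side, from -2.24 to -0.25. The class sum ranged from 6073 to 9496 CPM in WT IntSC and from 3171 to 6204 CPM in KO IntSC, which overlapped, with a KO mean of 64.2% of the WT mean.

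The FACIT collagens attach to the surface of fibrils and 1 of the 5 tested passed. Col16a1 ranged from 251 to 419.5 CPM in WT IntSC with a median of 369 and was 167, 166, 132, 169 and 146 CPM in KO IntSC. The groups did not overlap, and the log2 fold change was -1.17 ± 0.18 (SE, adjusted p = 0.00114), 2.25-fold lower. Col14a1, the FACIT with the most counts, ranged from 712 to 999 CPM in WT IntSC and was 890, 1004, 659, 1036 and 977 CPM in KO IntSC. Its groups overlapped, with a log2 fold change of 0.03 ± 0.16 (SE, 95% interval -0.28 to 0.34). Col12a1, found in tissue under tension, ranged from 21.4 to 54.8 CPM in WT IntSC and was 9.66, 20.4, 22.4, 3.35 and 25.1 CPM in KO IntSC, with a log2 fold change of -1.27 ± 0.43 (SE, adjusted p = 0.204).

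**Figure D2:**
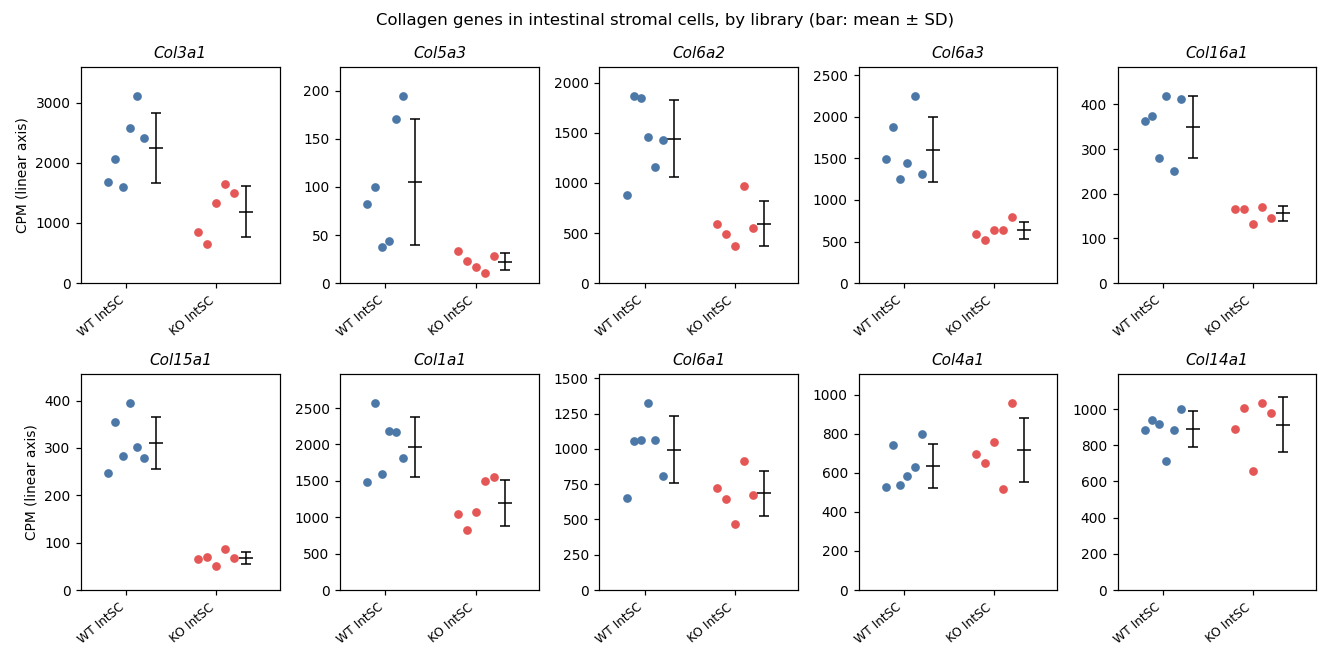
Each panel plots CPM on a linear axis from 0 for 1 gene in the 6 WT IntSC libraries (blue) and the 5 IntSC libraries labelled KO (red), 1 point a library, with the mean and SD as a black bar. Col15a1, Col6a3, Col16a1 and Col5a3 separate fully, while the points of Col4a1 and Col14a1 mix.

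The type IV chains Col4a1 and Col4a2, which form the common basement membrane trimer, differed little in stromal cells. Col4a1 ranged from 529 to 798 CPM in WT IntSC with a median of 606 and was 694.7, 650.2, 759.6, 518.7 and 959.6 CPM in KO IntSC, with a log2 fold change of 0.17 ± 0.18 (SE, 95% interval -0.18 to 0.52). Col4a2 ranged from 352.5 to 651 CPM in WT IntSC with a median of 423 and was 448, 492, 373, 465 and 553 CPM in KO IntSC, with a log2 fold change of 0.03 ± 0.18 (SE, 95% interval -0.32 to 0.39). Both genes had overlapping groups. The sum of the class ranged from 904 to 1408 CPM in WT IntSC and from 1018 to 1532 CPM in KO IntSC, a KO mean of 108% of the WT mean. The other chains had few reads. Col4a5 was 7.63 to 26.6 CPM in WT IntSC and 2.74 to 7.92 CPM in KO IntSC (log2 fold change -1.49 ± 0.54, SE, adjusted p = 0.256). Col4a4 was 0 in 4 of 6 WT libraries and at most 2.99 CPM in the others, against 3.22 to 9.40 CPM in KO IntSC (log2 fold change 2.59 ± 1.42, SE, adjusted p = 0.605).

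A few collagen genes had positive values without passing the test. Col8a1, a short-chain collagen of vessel walls and smooth muscle, ranged from 18.7 to 49.7 CPM in WT IntSC and was 27.3, 29.9, 69.8, 176 and 87.8 CPM in KO IntSC. KO IntSC 1 and 2 lay inside the WT range and the other 3 above it, and the log2 fold change was 1.31 ± 0.40 (SE, adjusted p = 0.125). Col8a2, its partner, was 0 to 3.29 CPM in WT IntSC and 1.31 to 9.44 CPM in KO IntSC (log2 fold change 2.36 ± 1.41, SE). The transmembrane Col13a1 ranged from 37.8 to 93.5 CPM in WT IntSC and was 55.6, 61.1, 55.1, 23.9 and 38.5 CPM in KO IntSC, and its log2 fold change was -0.33 ± 0.29 (SE). Col23a1, of the same class, had -0.56 ± 0.38 (SE). The anchoring fibril gene Col7a1 was 0 to 6.00 CPM in WT and 0 to 11.9 CPM in KO libraries. The 14 genes that were not tested reached at most 10.2 CPM in any IntSC library, the highest being Col6a6 in KO IntSC 5. They include Col26a1 and Col28a1, which stood at most at 2.02 and 6.32 CPM in IntSC libraries.

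With all 4 groups in 1 fit, where the groups share 1 estimate of the spread, 0 of the 6 collagen genes passed and 27 genes passed in all. The log2 fold changes in that fit were close to those above, from -2.23 for Col5a3 to -0.92 for Col3a1, while their adjusted p ranged from 0.0898 for Col15a1 to 0.867 for Col16a1. With DESeq2 9 collagen genes passed, all lower and including the 6. The 5 genes other than Col3a1 passed in each of the 11 fits that left out 1 library.

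Marker genes also differed in this comparison. The sum of the 10 stromal markers ranged from 16310 to 20830 CPM in WT IntSC and from 10670 to 12150 CPM in KO IntSC, a KO mean of 59.8% of the WT mean with no overlap, and the KO sum of all collagens was 64.5% of the WT mean. The stromal sum rested largely on Adamdec1. Without that gene the other 9 summed to 7056 to 9755 CPM in WT IntSC and 5390 to 7915 CPM in KO IntSC, which overlapped, with a KO mean of 83.85% of the WT mean. Of these 10, Fbln1, Mfap4 and Adamdec1 passed as lower and none as higher, while Pdgfrb itself was 211 to 670 CPM in WT and 687 to 1211 CPM in KO libraries. The smooth muscle sum was 129% and the pericyte sum 96.4% of the WT mean, both with overlapping groups. None of the 6 smooth muscle genes tested passed, and their median on the log2 scale was 0.37. Of the 6 pericyte genes tested Kcnj8, a potassium channel subunit, was lower (log2 fold change -1.41 ± 0.35, SE, adjusted p = 0.0472), and the median of the list was -0.90. The LEC marker sum was 252.5 to 420 CPM in WT IntSC and 459 to 541 CPM in KO IntSC, without overlap, and none of its 9 genes tested passed. The sums of blood endothelial, leukocyte and mesothelial and glial markers were 64.6%, 114% and 41.7% of the WT mean. The blood endothelial sum had a mean of 2024 CPM in WT IntSC and 1309 CPM in KO IntSC, with overlapping groups. Of its 6 genes tested, 1 passed as higher and 1 as lower. Epithelial markers stood at 0 to 103 CPM in WT and 53.1 to 137 CPM in KO libraries, with Krt19 and Lyz1 called higher. In bulk RNA, fewer cells of a type and less RNA per cell cannot be told apart, and the part of these markers in the collagen differences was not tested.

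The enzymes and chaperones that make collagen were also followed. Of 20 genes for collagen chain synthesis and folding, 18 were tested in IntSC, 2 passed as lower and none as higher. Serpinh1 encodes HSP47, the chaperone that binds the collagen triple helix. It ranged from 1595 to 2891 CPM in WT IntSC and was 1237, 1140.0, 1229, 1189 and 1354 CPM in KO IntSC, without overlap, with means of 2457 ± 462 CPM (SD, n = 6) and 1230 ± 79.5 CPM (SD, n = 5), a log2 fold change with a 95% interval of -1.31 to -0.69 (adjusted p = 0.00134). Plod1, a lysyl hydroxylase, ranged from 144 to 238 CPM in WT IntSC and was 89.2, 120.5, 97.4, 133 and 103 CPM in KO IntSC, again without overlap (log2 fold change -0.83 ± 0.19, SE, adjusted p = 0.0256). Plod1 lost its call without KO IntSC 1, 2, 3 or 5 taken singly (adjusted p 0.0519 to 0.0868).

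Procollagen processing and cross-linking enzymes and collagen receptors gave 1 call each, both higher. Of 14 processing genes, 11 were tested. Loxl3, a lysyl oxidase that forms cross-links, was 36.9 to 91.9 CPM in WT IntSC and 138, 102, 115, 147 and 80.2 CPM in KO IntSC (log2 fold change 0.98 ± 0.25, SE, adjusted p = 0.0497). Of 10 receptor genes, 7 were tested. Ddr1, a receptor tyrosine kinase that binds collagen, was 99.4 to 204 CPM in WT IntSC and 322.5, 299.5, 232, 292 and 214 CPM in KO IntSC, without overlap (log2 fold change 0.87 ± 0.21, SE, adjusted p = 0.0382). Loxl3 overlapped in KO IntSC 5 alone. Both calls were near the threshold. Without WT IntSC 1, 2, 5 or 6 or KO IntSC 1, 2, 3 or 4, taken singly, neither passed, and Loxl3 also failed without WT IntSC 3 (adjusted p 0.0534 to 0.15 for Loxl3 and 0.0599 to 0.124 for Ddr1).

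Because YAP and TAZ act on genes through TEAD factors, the RefSeq start regions (GRCm38.p6, from 250 bases before to 50 after a start) were searched for the core TEAD letters GGAATG on either strand. Of 44 collagen genes, 35 had such a region, some several, and 5 of their 38 regions held the letters, against 14.7% of all 32851 regions. Among the 6 genes called lower, Col3a1 held the letters once, at base 168 before the start, Col6a2 held them once in 1 of its 2 regions, at base 115 before the start, and the other 4 did not. The regions of Col3a1 and Col6a2 are shown with the match in capitals. That of Col15a1, which had the lowest adjusted p of the collagen genes, is shown beside them without a match to GGAATG. The study named the shorter GGAAT as the TEAD consensus, which was not counted over the regions here. The Col15a1 region holds these shorter letters on the other strand, as ATTCC. Col3a1 lies at chr1:45311288-45311587 on the plus strand, Col6a2 at chr10:76623355-76623654 on the minus strand and Col15a1 at chr4:47207762-47208061 on the plus strand. A match describes letters only and says nothing on binding.
Col3a1: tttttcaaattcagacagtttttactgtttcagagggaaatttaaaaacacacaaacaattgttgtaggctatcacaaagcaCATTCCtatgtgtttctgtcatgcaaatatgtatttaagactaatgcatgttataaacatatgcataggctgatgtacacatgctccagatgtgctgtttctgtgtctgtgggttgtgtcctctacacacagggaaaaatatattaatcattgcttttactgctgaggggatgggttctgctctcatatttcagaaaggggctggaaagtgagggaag
Col6a2: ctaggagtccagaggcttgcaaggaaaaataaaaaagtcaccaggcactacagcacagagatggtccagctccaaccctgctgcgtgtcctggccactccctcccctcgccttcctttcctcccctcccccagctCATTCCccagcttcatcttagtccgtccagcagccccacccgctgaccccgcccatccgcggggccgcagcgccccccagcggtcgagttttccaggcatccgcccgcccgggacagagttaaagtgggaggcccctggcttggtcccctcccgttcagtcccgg
Col15a1: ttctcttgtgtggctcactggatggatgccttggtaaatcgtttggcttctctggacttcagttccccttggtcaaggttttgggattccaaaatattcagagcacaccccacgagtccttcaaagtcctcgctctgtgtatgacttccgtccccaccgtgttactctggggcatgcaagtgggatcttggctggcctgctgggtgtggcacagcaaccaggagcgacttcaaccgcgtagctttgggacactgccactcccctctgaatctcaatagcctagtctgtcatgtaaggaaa

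The second question was which collagen genes LECs hold without the deletion. WT LEC and WT IntSC were compared for 26 collagen genes, of which 21 were lower in WT LEC and 1 was higher. Of all 12203 genes tested, 12.3% passed as lower and 10.3% as higher. The same 21 genes had every WT LEC library below every WT IntSC library, an order found in 11.4% of all genes, and the 1 higher gene had every library above, an order found in 9.76%. The median log2 difference was -4.03 over the 26 collagen genes and -0.04 over all genes tested. Without WT LEC 1, 20 collagen genes were lower and 1 was higher.

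Col23a1 was the gene that was higher. It encodes a transmembrane collagen, and it ranged from 22.9 to 83.2 CPM in WT IntSC with a median of 40.3 against 766, 994, 1087 and 1150 CPM in WT LEC. Every LEC library was far above every stromal library, a log2 difference of 4.42 ± 0.32 (SE, adjusted p = 9.95e-08), which is 21.4-fold. In KO LEC it was 844, 1192 and 1013 CPM, inside the WT LEC range but for 1 library, and the log2 fold change between LEC genotypes was 0.03 ± 0.22 (SE, 95% interval -0.39 to 0.46). In IntSC libraries labelled KO it was 14.1 to 56.0 CPM.

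The multiplexin Col18a1 and the type IV genes Col4a1 and Col4a2 had smaller differences between the cell types. Col18a1 was 312, 193, 288 and 367 CPM in WT LEC, overlapping the 299 to 478 CPM of WT IntSC, with a log2 difference of -0.45 ± 0.23 (SE, adjusted p = 0.197, 95% interval -0.91 to 0.00). Col4a1 was 366 to 466 CPM in WT LEC, just below the lowest WT IntSC library, with a log2 difference of -0.62 ± 0.20 (SE, adjusted p = 0.0326). This call was lost without WT LEC 1 or 3 or WT IntSC 2 or 5, taken singly (adjusted p 0.0502 to 0.0908). Col4a2 was 96.0, 205, 179 and 219 CPM in WT LEC against 352 to 651 CPM in WT IntSC, a log2 difference of -1.38 ± 0.27 (SE, adjusted p = 0.00142). The other multiplexin, Col15a1, was 0.655 to 35.8 CPM in WT LEC, without overlap and 17.1-fold lower than in WT IntSC (log2 difference -4.10 ± 0.69, SE, adjusted p = 0.000575).

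Fibrillar, type VI and FACIT genes were much lower in LECs. All 7 fibrillar, 5 type VI and 4 FACIT genes tested passed as lower, with log2 differences of -4.60 to -3.27, -4.98 to -4.08 and -9.21 to -3.12. Col1a1 had 181, 83.5, 26.6 and 35.3 CPM in WT LEC, and Col3a1 had 285, 89.6, 80.6 and 114 CPM, so WT LEC 1 was the highest for both. Without it the log2 differences of Col3a1, Col6a2 and Col6a3 were -4.57, -4.90 and -5.29, and that of the transmembrane Col13a1 was -3.95. Col12a1 had 2 reads in all WT LEC libraries together and 1532 in WT IntSC (log2 difference -9.21 ± 0.88, SE). Col8a1 was 0.0994 to 0.281 CPM in WT LEC and 18.7 to 49.7 CPM in WT IntSC (log2 difference -7.36 ± 0.79, SE). Col16a1 was 19.6, 2.83, 10.4 and 8.85 CPM in WT LEC against 251 to 419.5 CPM in WT IntSC (log2 difference -5.07 ± 0.46, SE). Col6a5 was 17.2 CPM in WT LEC 1 and 0.0994 to 0.374 CPM in the other 3, against 105 to 174 CPM in WT IntSC (log2 difference -4.98 ± 1.12, SE, and -9.32 without WT LEC 1). Of these genes, Col12a1 and Col8a1 rested on 2 and 7 reads in WT LEC. Col22a1, a collagen of tissue junctions, had no read in the WT LEC libraries and 265 in WT IntSC, which is at least 90.3-fold lower when 3 counts over the group are taken as the floor.

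Stromal transcripts in the LEC libraries were measured as a share of the stromal level. The sum of the 10 stromal markers in WT LEC was 6.86% of that in WT IntSC, and single markers ranged from 2.56% for Fbln1 to 26.9% for Serpinf1. Without Adamdec1 the sum of the other 9 was 8.29%. The fibrillar sum was 5.96% and the type VI sum 5.20%, while the basement membrane sum was 54.1% and the multiplexin sum 43.7%. Of 26 collagen genes tested, 14 were at or below the stromal sum and 7 were above the highest single marker: Col23a1, Col4a6, Col18a1, Col4a1, Col4a2, Col7a1 and Col4a5. Without WT LEC 1 the stromal sum stood at 3.90%, or 5.49% without Adamdec1, and Serpinf1 at 33.8%, the fibrillar sum at 4.07%, the type VI sum at 2.80% and the basement membrane sum at 56.0%. Of the 7 genes, Col4a6 and Col4a5 rested on WT LEC 2, with 14.4 and 12.3 CPM there and at most 4.37 CPM in the other WT LEC libraries, and Col7a1 rested on WT LEC 1, where it had 3.23 CPM, and stood at 2.60% without it. How much of the LEC reads of fibrillar and type VI genes came from stromal cells or their free RNA was not tested.

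**Figure D3:**
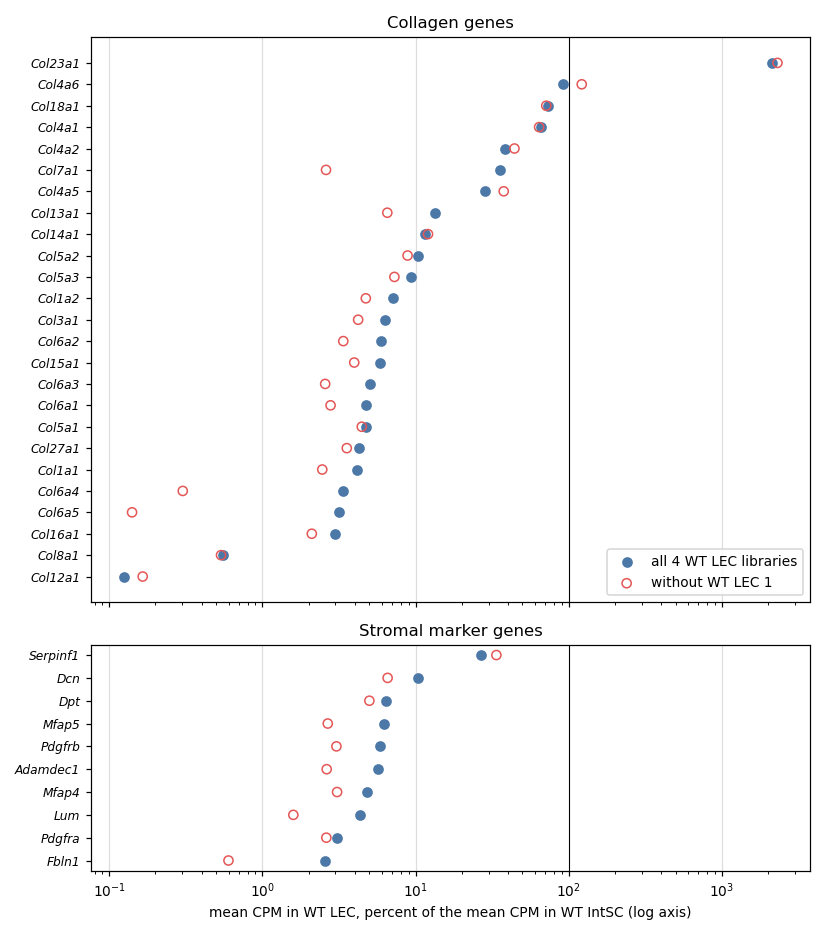
For 25 collagen genes (upper panel) and the 10 stromal marker genes (lower panel), the mean CPM in WT LEC is plotted on a log axis as a percent of the mean in WT IntSC (filled, all 4 libraries; open, without WT LEC 1; Col22a1, at 0 in WT LEC, is left out). Most fibrillar and type VI genes lie in the range of the stromal markers and shift left without WT LEC 1. The stromal markers other than Serpinf1 also shift left, while Col4a1, Col4a2, Col18a1 and Col23a1 shift little.

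The third question was how collagen genes differed between LECs of WT mice and those labelled KO. Of 20 collagen genes tested, none passed in either direction with edgeR's quasi-likelihood test, and 6 had an unadjusted p under 0.05. Of all 10639 genes tested, 0.0282% passed as higher and 0.0376% as lower, and 7.87% had an unadjusted p under 0.05. With DESeq2 4 collagen genes passed, 2 higher and 2 lower, among 309 genes in all, 84 higher and 225 lower. For 2 collagen genes, Col4a1 and Col4a2, every KO LEC library was above every WT LEC library, an order found in 4.01% of all genes, and for 6 genes every KO LEC library was below, an order found in 5.8%. The median log2 fold change was -1.12 over the 20 collagen genes and -0.03 over all genes.

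Col4a1 stood at 444, 394, 366 and 466 CPM in the WT LEC samples and at 693, 569 and 848 CPM in the KO LEC samples, each in the order of their numbers. All KO values were above all WT values, with means of 417.5 ± 45.7 CPM (SD, n = 4) and 703 ± 140 CPM (SD, n = 3), and the log2 fold change was 0.76 ± 0.23 (SE, adjusted p = 0.37). Col4a2 was 96.0, 205, 179 and 219 CPM in WT LEC and 350.5, 443 and 346 CPM in KO LEC, again without overlap. Its log2 fold change was 1.13 ± 0.31 (SE, adjusted p = 0.291), and both genes passed with DESeq2 (adjusted p = 0.0228 and 0.024). Without WT LEC 1 the log2 fold changes were 0.79 and 0.92. The basement membrane sum ranged from 540 to 689 CPM in WT LEC and from 1011 to 1195 CPM in KO LEC, and the KO mean was 180% of the WT mean, or 174% without WT LEC 1. Basement membrane genes took 16.9% to 25.6% of the collagen reads of WT LEC and 34.8% to 42.8% of those of KO LEC.

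Col4a1 and Col4a2 lie head to head on chromosome 8 and are known to share a start region. The RefSeq start region of Col4a1 at chr8:11312777-11313076 on the minus strand and that of Col4a2 at chr8:11312555-11312854 on the plus strand (GRCm38.p6) overlap by 78 bases, shown in capitals in the Col4a1 sequence. The genes themselves overlap by 85 bases at their 5′ ends, away from the 3′ ends that the kit reads, and how the counting used strand is not given in the sources used here. Neither region held GGAATG, while that of Col4a1 held the shorter GGAAT, whose share over all regions was not counted. Both held the CCAAT letters on 1 strand or the other, as did 37.4% of all regions and 13 of the 38 collagen regions.
Col4a1: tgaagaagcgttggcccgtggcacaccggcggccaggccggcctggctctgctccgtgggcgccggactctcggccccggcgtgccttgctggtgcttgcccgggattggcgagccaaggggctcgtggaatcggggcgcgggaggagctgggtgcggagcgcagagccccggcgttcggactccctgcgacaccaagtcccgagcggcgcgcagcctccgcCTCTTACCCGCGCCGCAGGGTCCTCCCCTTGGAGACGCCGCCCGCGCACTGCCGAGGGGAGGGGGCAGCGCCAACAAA

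Neighbouring collagen genes did not all show the same value. Col4a1 and Col4a2 had log2 fold changes of 0.17 and 0.03 in IntSC and of 0.76 and 1.13 in LEC. Col6a2 and Col6a1, 85161 bases apart on chromosome 10, had -1.29 and -0.54 in IntSC and -2.20 and -1.34 in LEC. Col3a1 and Col5a2, 24624 bases apart on chromosome 1, had -0.92 and -0.36 in IntSC, and -3.01 and 0.77 in LEC. The differences within a pair were not tested.

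The 6 collagen genes with every KO LEC library below WT were Col3a1, Col5a1 and Col27a1 of the fibrillar class, Col6a2, the FACIT Col14a1 and the multiplexin Col15a1. Col3a1 was 285, 89.6, 80.6 and 114 CPM in WT LEC and 8.69, 19.2 and 24.6 CPM in KO LEC, without overlap, and its log2 fold change of -3.01 ± 0.59 (SE) had the lowest adjusted p of the collagen genes in this comparison (adjusted p = 0.0879). Without WT LEC 1 it was -2.42 (adjusted p = 0.337), and it passed with DESeq2 (adjusted p = 0.000208). Col14a1 was 90.7, 121, 71.9 and 129 CPM in WT LEC and 21.1, 41.7 and 52.6 CPM in KO LEC (log2 fold change -1.41 ± 0.47, SE, adjusted p = 0.423). Col15a1 was 35.8, 20.1, 0.655 and 16.3 CPM in WT LEC and had 5 reads in all KO LEC libraries together (log2 fold change -6.32 ± 2.25, SE, adjusted p = 0.473). With DESeq2 Col15a1 passed (adjusted p = 0.00327). Col6a2, Col5a1 and Col27a1 also did not overlap, with log2 fold changes of -2.20 ± 0.68, -1.87 ± 1.29 and -5.20 ± 2.55 (SE). Leaving out WT LEC 1, that of Col6a2 was -1.38 (adjusted p = 0.992), and Col15a1 and Col27a1 had too few reads for a test.

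Other fibrillar and type VI genes overlapped between LEC genotypes. Col1a1 was 2.85, 60.6 and 42.8 CPM in KO LEC against 26.6 to 181 CPM in WT LEC, and Col1a2 was 32.9, 99.8 and 131 CPM against 93.4 to 332 CPM. The fibrillar sum was 272 to 884 CPM in WT LEC and 74.9 to 252 CPM in KO LEC, without overlap, with a KO mean of 40.1% of the WT mean, or 58.7% without WT LEC 1, and the type VI sum was 41.5%, or 77.1% without it. The FACIT sum was 37.9%, or 37.2% without it. The stromal marker sum was lower as well, with 659 to 2960 CPM in WT LEC and 311 to 587 CPM in KO LEC, a KO mean of 32.9%, or 57.8% without WT LEC 1. Without Adamdec1 these were 45.9% and 69.35%. The leukocyte marker sum was 234 to 541 CPM in WT LEC and 94.0 to 176 CPM in KO LEC, and the LEC marker sum overlapped at 111% of the WT mean. The sum of mesothelial and glial markers was 3.65% and that of epithelial markers 364% of the WT mean, and none of the 10 stromal markers passed. The part of these markers in the collagen values was not tested. Col18a1 was 365, 368 and 163 CPM in KO LEC, overlapping WT LEC (log2 fold change 0.05 ± 0.33, SE). The 24 collagen genes not tested in LECs reached at most 23.2 CPM in a library, for Col26a1 in KO LEC 3, where the other 6 LEC libraries held at most 0.468 CPM.

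Synthesis, processing and receptor genes in LECs gave no call in 17, 8 and 4 genes tested. Summed synthesis genes overlapped between LEC genotypes at 103% of the WT mean. The sum of the receptor genes was 522 to 722 CPM in WT LEC and 749.9 to 1044 CPM in KO LEC, without overlap. Most of it was Itgb1, the beta1 integrin chain, with 464 to 626 CPM in WT LEC and 717 to 937 CPM in KO LEC (log2 fold change 0.64 ± 0.22, SE, adjusted p = 0.442), while the median over the 4 receptor genes tested was -0.86. Between WT LEC and WT IntSC, 2 of 18 synthesis genes, 7 of 12 processing genes and 4 of 7 receptor genes tested were lower in LECs and none was higher, against 12.3% lower and 10.3% higher of all genes.

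**Figure D4:**
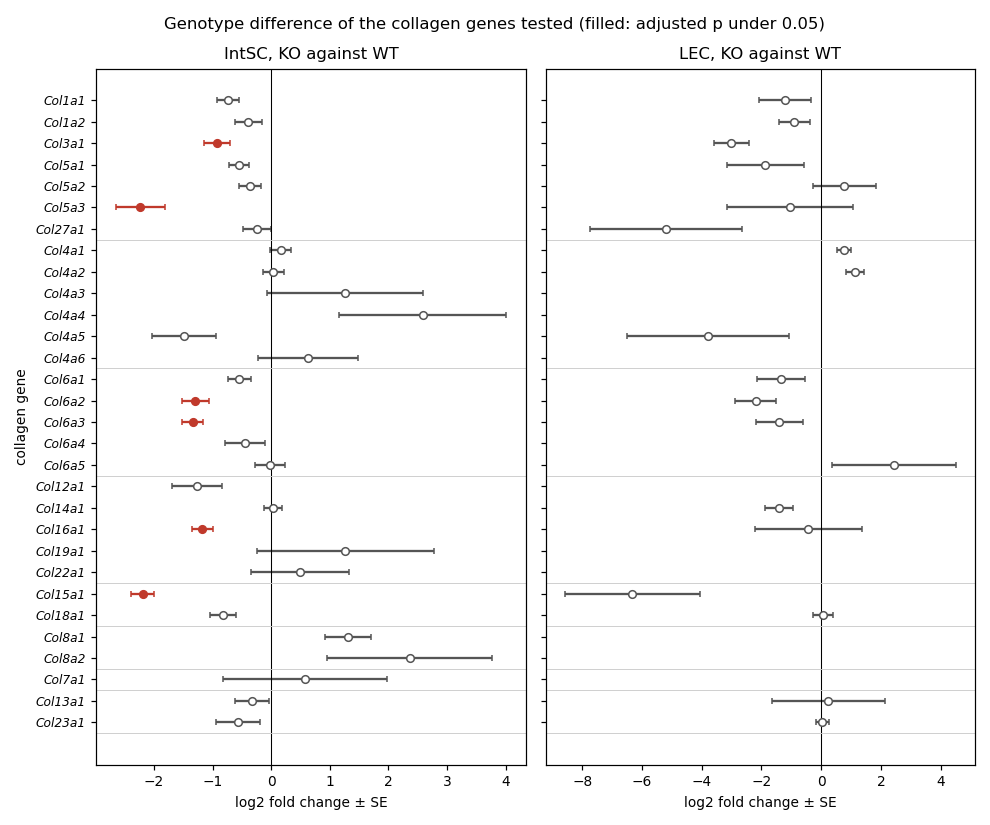
The log2 fold change of KO against WT with its SE is plotted for each collagen gene tested in IntSC (left) and in LEC (right, on a wider axis), ordered by class and with filled red points for an adjusted p under 0.05. In IntSC 6 genes are filled, all left of 0, and in LEC none is filled and the SEs of low genes are wide.

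The fourth question was whether stromal cells and LECs differed in their KO to WT ratio. The interaction of genotype and cell type was tested with edgeR's quasi-likelihood test on all 4 groups for 36 collagen genes, and 4 passed: Col3a1, Col14a1, Col15a1 and Col27a1. All 4 were positive, which means that the KO to WT ratio was lower in LEC than in IntSC. The interaction fit shares 1 estimate of the spread over the 4 groups. For KO against WT, such a shared estimate gave 538 genes in LEC and 27 in IntSC, against 7 and 183 with their own groups. In LEC on its own groups none of the 4 genes passed the quasi-likelihood test (adjusted p 0.0879 to 0.683). Of all 14015 genes tested, 1.42% passed as positive and 0.278% as negative, and the median interaction was 0.68 over the collagen genes and 0.24 over all genes.

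Col14a1 had a log2 fold change of 0.03 in IntSC and of -1.41 in LEC, an interaction of 1.52 ± 0.34 (SE, adjusted p = 0.0182). For Col27a1 the values were -0.25 and -5.20 and the interaction was 4.96 ± 0.94 (SE, adjusted p = 0.00674). This rests on few reads, since Col27a1 had 4 reads in all KO LEC libraries and 0.398 to 9.70 CPM in WT LEC. Col15a1 had negative values in both cell types, with an interaction of 4.19 ± 1.02 (SE, adjusted p = 0.0391). Col3a1 was likewise on the negative side in both, with an interaction of 2.17 ± 0.54 (SE, adjusted p = 0.0438). The last 2 calls were close to the threshold. Without WT LEC 1 the interaction of Col3a1 was 1.58 (adjusted p = 0.0613) and that of Col15a1 3.63 (adjusted p = 0.0534), and with 1 library left out in turn their calls were lost in 11 and 15 of 18 fits (adjusted p up to 0.0921 and 0.102). Col14a1 and Col27a1 passed in all 18 of these fits. With the replicate number as a block in the fit, neither passed (adjusted p = 0.378 and 0.464), nor did the other 2. Without WT LEC 1, 3 collagen genes passed, 2 positive and 1 negative, the negative gene lying outside these 4. All 4 are genes at 4.28% to 11.6% of the stromal level in WT LEC. The stromal marker sum of KO LEC stood at 32.9% of that of WT LEC, or 57.8% without WT LEC 1. Without Adamdec1 these were 45.9% and 69.35%. The part of stromal transcripts in the 4 interactions was not tested.

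Col4a1 and Col4a2 had interactions of -0.52 ± 0.29 and -1.02 ± 0.34 (SE), with adjusted p of 0.42 and 0.124, so that a difference between the cell types in their response was not called. Col4a2 passed with DESeq2 (interaction -1.13, adjusted p = 0.0316).

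**Figure D5:**
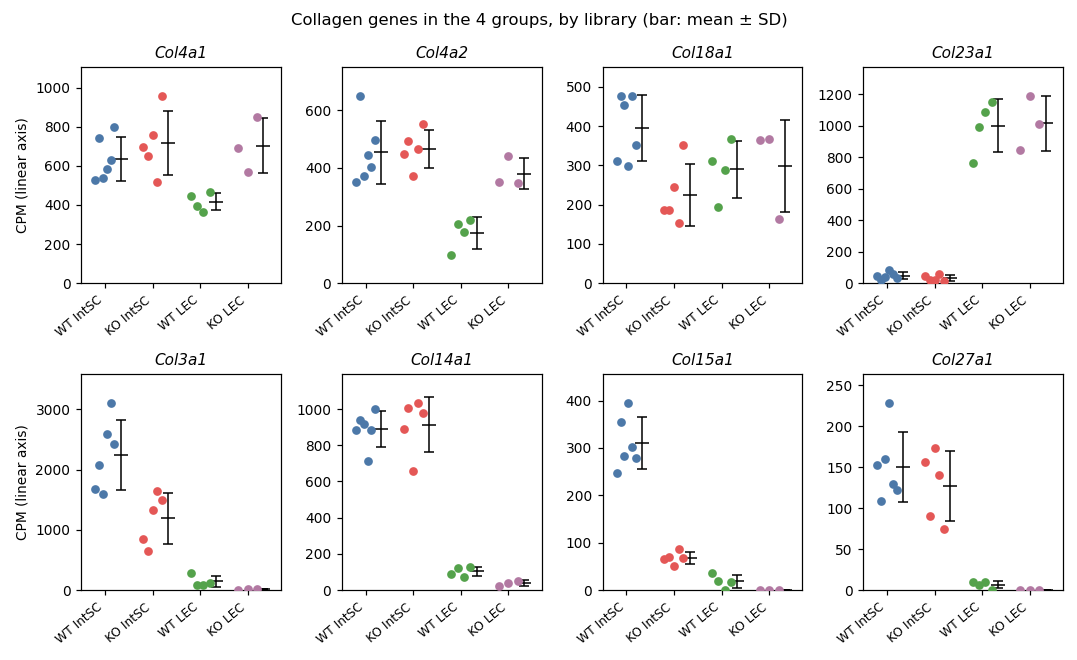
Each panel plots CPM on a linear axis from 0 for 1 gene in the 4 groups, 1 point a library (WT IntSC blue, KO IntSC red, WT LEC green, KO LEC purple), with the mean and SD as a black bar. Col4a1 and Col4a2 are higher in the 3 KO LEC libraries than in the 4 WT LEC libraries, Col23a1 is high in all 7 LEC libraries, and Col15a1 is lowest in KO LEC.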

How the data were processed

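RNA of 18 libraries was made with a Lexogen QuantSeq 3′ kit and sequenced on a NextSeq 500. The authors deposited a raw read count per gene symbol for each library. The study's methods name TopHat and Cufflinks, and the submitters' processing notes name Bowtie2, edgeR and the build mm10, while the counting program is not given in the sources used here. Of 23282 lines per table, symbols on several lines (35) were summed, none of them a collagen gene.

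Groups were taken from the labels. The members and gene lists were chosen with earlier results of these data known. Differences were tested with edgeR 4.0.16 (quasi-likelihood, TMM, filterByExpr, robust) in R 4.3.3 on the counts, with Benjamini-Hochberg adjustment over all genes tested and a threshold of 0.05. The interaction used all 4 groups, and the other comparisons their own groups. SE was derived from the F statistic, and 95% intervals from the SE. Full values were given for genes past the threshold by genotype or interaction, the 2 genes of highest mean CPM in each class, and the 5 past the threshold with the largest cell type difference in each direction, and other genes named were chosen after their values were seen. Fits were tested on simulated counts. Alternatives were DESeq2 1.42.0, RLE factors, no filter beyond 1 read, exclusion of Rn45s (a ribosomal RNA gene with 7.02% to 24.4% of counts), a replicate block, all groups in 1 fit and leaving out each library in turn, and those without WT LEC 1 or KO IntSC 5 for class sums and without Adamdec1 for stromal markers were chosen after seeing the data. No pair of libraries of the same group agreed within sampling noise (lowest chi-square per degree of freedom 31.4). Tables were made with pandas 2.3.3 and figures with matplotlib 3.10.9.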

Additional observations from a re-analysis of the deposited data

Results flagged for a closer look

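Dixon's criterion was applied to groups of 4 to 6 libraries, so KO LEC, with 3, was not examined. The groups of values share libraries, and class sums hold genes also examined singly, so they are not independent. Of 69 groups of values examined, 8 held a library set apart from the others by Dixon's criterion, and chance gives about 1 in 20, or 3.45. In 7 of the 8 this was WT LEC 1 as the highest of 4: Col1a2 had 332 CPM there and 125 CPM in the nearest library, Col3a1 had 285 and 114 CPM, Col6a2 198 and 58.8 CPM, and Col6a5 17.2 and 0.374 CPM. The fibrillar sum was 884 CPM against 331 CPM in the nearest library, the type VI sum 523 against 142 CPM, and the stromal marker sum 2960 against 834 CPM. The 8th was the basement membrane sum of KO IntSC 5, at 1530 CPM against 1160 CPM in the nearest KO library. The part of stromal cells in WT LEC 1 was not tested.

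The KO to WT difference in stromal cells differed from that in LECs for 4 collagen genes by edgeR's interaction test, with the log2 value in IntSC minus that in LEC at 1.52 for Col14a1, 4.19 for Col15a1, 4.96 for Col27a1 and 2.17 for Col3a1.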

How the results depend on the processing

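The labels do not say whether equal replicate numbers mark libraries of the same mice or sort. Same-numbered WT IntSC and WT LEC libraries correlated at 0.0219 to 0.038 in their deviations from the group means. Other pairs of these groups had a mean of -0.00548. For KO IntSC and KO LEC the same-numbered range was -0.0203 to 0.0333. Values this low between different cell types cannot decide whether the libraries were paired. With a replicate block, collagen genes past the threshold numbered 7 (6 without) in IntSC, 0 in LEC, 20 (22) between cell types and 0 (4) for the interaction, and all genes numbered 122 (183), 3 (7), 1596 (2763) and 16 (238). The interactions of Col3a1, Col14a1, Col15a1 and Col27a1 were positive with the block as well, with adjusted p of 0.377 to 0.802. DESeq2 called 9, 4, 20 and 6 collagen genes and 376, 309 and 1054 genes in all in IntSC, LEC and for the interaction. Without a filter beyond 1 read, LEC gave 1 collagen gene of 32 genes and the interaction 2 collagen genes. With all 4 groups in 1 fit, IntSC gave 0 collagen genes of 27 genes and LEC 6 of 538, and Col18a1 and Col23a1 turned to -0.019 and -0.0403 in LEC. The cause was not tested.

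With each library left out in turn, collagen calls numbered 5 to 7 in IntSC, 0 in LEC, 21 to 23 between cell types and 2 to 4 for the interaction, and calls over all genes 99 to 186, 0 to 16, 2233 to 2889 and 161 to 461. Log2 fold changes that changed sign were Col14a1 (-0.0281 to 0.13), Col4a2 (-0.0359 to 0.17), Col6a5 (-0.27 to 0.13) and Col7a1 (-0.61 to 1.10) in IntSC, and Col13a1 (-0.80 to 1.26), Col16a1 (-0.93 to 0.15), Col18a1 (-0.11 to 0.35) and Col23a1 (-0.0808 to 0.16) in LEC. None of these 8 had passed.

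Without Rn45s, whose removal raises the scale of other genes, mean sums moved by more than 1 SD to 705, 1213 and 1417 CPM for basement membrane genes in WT LEC, KO LEC and KO IntSC, 4959 CPM for type VI and 830 CPM for multiplexin genes in WT IntSC, 1519.6 and 1294 CPM for FACIT genes in WT and KO IntSC, and 1179 CPM for transmembrane genes in WT LEC. Depth limits genes near the floor, and 24 collagen genes had too few reads for a test in LEC.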
